A study of Mus musculus with 15 samples.

Results

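The comparison described here sets lung metastases of mice fed a diet without methionine (deficient, 0%) against those of mice fed a methionine-adequate diet. Libraries were chosen by the diet that the sample labels name, which gives 3 deficient and 3 adequate libraries, or 6 of the 15 in the series. The other libraries came from a methionine-restricted diet (25%, n = 3) and a methionine-supplemented diet (300%, n = 6); they entered the estimate of the spread and are given as side values. Per the labels, all hosts were male C57BL/6J mice aged 8 weeks that received 100000 B16-F10.1 cells, a pigmented mouse melanoma line, through a tail vein. After 21 days they were moved to a test diet for 2 weeks. The tumour cells are thus a single transplanted line growing in mice that keep their own immune system, and each library holds RNA of the tumour and of any host cells taken with it. Whether each library is from its own mouse is not said in the labels, and the p-values therefore measure only how much these samples vary, which may be technical.

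Methionine is an essential amino acid. It begins protein synthesis and is converted to S-adenosylmethionine, the methyl donor for DNA, histones, RNA and many small molecules. The homocysteine left after methyl transfer is either methylated back to methionine by methionine synthase or passed to cysteine by transsulfuration, and the salvage pathway rebuilds methionine from the by-product of polyamine synthesis. When an amino acid is short, uncharged tRNA activates the kinase GCN2, and the transcription factor ATF4 then induces genes of amino acid synthesis, transport and tRNA charging.

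RNA was sequenced after depletion of ribosomal RNA with a strand-marking kit. Values are counts scaled to library size (CPM) after TMM normalization, and a fold change is the log2 of deficient over adequate from edgeR's fit of all 15 libraries, with its standard error (SE). The 6 libraries held between 13714670 and 29994264 counts. The metastases carried the melanocyte genes of their label: Pmel, which encodes the fibril protein of the pigment organelle, stood between 3392 and 6311 CPM in the 6 libraries. A pair of libraries stood apart from the rest. Deficient replicate 3, which had the lowest total, had Spearman correlations across genes of 0.849, 0.906 and 0.875 with the adequate libraries and 0.922 and 0.884 with the other deficient libraries, whereas the remaining pairs lay between 0.946 and 0.973. It also held the most RNA of normal lung: Sftpc, the surfactant protein C gene of alveolar type 2 cells, stood at 2159 CPM there and at 37.3 to 319 CPM in the other 5 libraries. Adequate replicate 1 had 36.4% of its counts in a pair of unnamed gene IDs with identical counts, against 14.8% to 24.4% in the other 5, and its TMM factor was 0.69 against 0.945 to 1.081. Genes classed by name as structural RNA held 9.407% of its counts, against 3.996% to 5.591% in the other 5. Medians of the main lists are also given without deficient replicate 3 or adequate replicate 1. In bulk RNA, fewer cells of a type and less RNA per cell cannot be told apart.

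Ddr2, which encodes a receptor tyrosine kinase for fibrillar collagen (ENSMUSG00000026674), rose under the deficient diet. It stood at 65.1, 48.1 and 60.7 CPM in the adequate libraries and at 131, 138 and 133 CPM in the deficient libraries. Every deficient library lay above every adequate library, and the deficient libraries differed little among themselves (134 ± 3.8 CPM against 58 ± 8.81 CPM, SD, n = 3 each). The fold change was 1.21 (SE 0.169, edgeR adjusted p = 0.0435). It was the gene that edgeR's quasi-likelihood test called among 16001 tested with Benjamini-Hochberg adjustment, which is 0.00625% of them. Ddr2 stood between 100 and 127 CPM in the 3 restricted libraries and between 86.2 and 123 CPM in the 6 supplemented libraries, and these comparisons share the adequate libraries. The fold change was at least 1.09 in every other fit, but the call was lost in 10 of them: the edgeR adjusted p was 0.138 without adequate replicate 2, 0.0616 without adequate replicate 3, 0.145 without deficient replicate 1, 0.0789 without deficient replicate 2, 0.165 without deficient replicate 3 and 0.541 when the 6 libraries were fitted alone.

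The remaining genes gave graded differences that no adjusted test of edgeR separated from the spread. At an unadjusted p under 0.05, 1487 genes were higher in the deficient libraries (9.29%) and 935 were lower (5.84%). All 3 deficient libraries lay above all 3 adequate libraries in 1266 genes (7.91%) and below them in 1273 (7.96%). DESeq2, run on the same genes, called 429 higher (2.80% of 15308 with an adjusted p) and 159 lower (1.04%). Much of this turned on deficient replicate 3: without it, 496 of the 1487 higher genes and 405 of the 935 lower genes still had an unadjusted p under 0.05. The genes that kept an unadjusted p under 0.05 in the fit of all libraries and in each of the 6 fits that left out 1 of the 6 libraries numbered 311 higher (1.94%) and 271 lower (1.69%), and they are named below as kept in every left-out fit.

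The 8 higher genes described next had the smallest p among genes with a symbol, a mean log2 CPM of at least 1 and groups that do not overlap. The lack of overlap was thus part of their choice and is not a result. Of these 8 genes, 3 act in antigen display, the interferon response or T cell signalling. Tap2, a subunit of the transporter that loads peptides onto MHC class I, stood at 23.6, 23.1 and 25.8 CPM in adequate and 53.4, 42.3 and 45 CPM in deficient libraries. Its fold change was 0.96 (SE 0.18, edgeR adjusted p = 0.149). Uba7, the enzyme that activates the ubiquitin-like protein ISG15, stood at 14.4, 12.5 and 10.2 CPM against 42.5, 25.6 and 51.7 CPM (1.69, SE 0.346, adjusted p = 0.149). Lcp2, the adaptor SLP-76 of T cell receptor signalling, stood at 4.16, 3.96 and 2.27 CPM against 10, 10.2 and 14 CPM (1.72, SE 0.342, adjusted p = 0.149). In each of the 3, the lowest deficient library lay at least as far above the adequate libraries as those lay from each other. Tap2 stood between 40.6 and 56.8 CPM in the restricted and between 31.1 and 44.5 CPM in the supplemented libraries. For Uba7 the ranges were 26.5 to 54 CPM and 15.6 to 36.8 CPM, and for Lcp2 7.08 to 8.51 CPM and 3.53 to 8.23 CPM.

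Mfsd12, needed for the import of cysteine into melanosomes, stood at 23.4, 23 and 14.2 CPM in adequate and 44.5, 36.6 and 45 CPM in deficient libraries. Its fold change was 1.06 (SE 0.188, adjusted p = 0.149). Tgfb3, a transforming growth factor, stood at 18, 20.7 and 11.5 CPM against 30.7, 33.4 and 37.8 CPM (1.02, SE 0.203), and Unc13b, a priming factor for vesicle release, at 17.7, 8.58 and 16.3 CPM against 33.7, 34.8 and 32.5 CPM (1.25, SE 0.244). The last of the 8, Robo4, a receptor of endothelial cells, was highest in deficient replicate 3, with 22.1, 24.9 and 51.5 CPM against 4.85, 9.83 and 6.91 CPM in adequate libraries (2.18, SE 0.45, adjusted p = 0.149). Mfsd12 stood between 41.2 and 45.7 CPM in the restricted and between 31.7 and 41.5 CPM in the supplemented libraries, and Tgfb3 between 24 and 25.6 CPM and between 20.5 and 26.8 CPM.

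Among the 8 lower genes, chosen by the same rule, were 3 enzymes of mitochondrial and intermediary metabolism. Cryl1, a dehydrogenase of the uronate pathway, stood at 47.4, 45.2 and 43.1 CPM in adequate and 24.4, 25.8 and 23.6 CPM in deficient libraries, with a fold change of -0.88 (SE 0.171, edgeR adjusted p = 0.149). Pccb, a subunit of propionyl-CoA carboxylase, which handles carbon from the breakdown of methionine and other amino acids, stood at 37.5, 42.2 and 41.2 CPM against 25.6, 21.6 and 24.8 CPM (-0.75, SE 0.159, adjusted p = 0.149). Clybl, a mitochondrial citramalyl-CoA lyase, stood at 22.5, 11.6 and 13.4 CPM against 6.85, 7.37 and 6.55 CPM (-1.19, SE 0.262, adjusted p = 0.149). In all 3 genes the deficient libraries lay close together, and their place below every adequate library was part of the choice.

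Arl2bp, a binding partner of the small GTPase ARL2, stood at 159, 151 and 140 CPM against 105, 89.1 and 90 CPM (-0.66, SE 0.141). Sap18b had the smallest p of the lower genes, at 138, 86 and 84.7 CPM against 42.9, 43.3 and 41.3 CPM (-1.27, SE 0.199, adjusted p = 0.0816); it is a near-identical copy of Sap18, so its count is uncertain. The last 3 are predicted genes. Gm22973 and Gm22133 had fold changes of -2.18 (SE 0.422) and -1.44 (SE 0.294), and were classed by name as structural RNA, which was most abundant in adequate replicate 1. Gm4876 stood at 7.12, 22.3 and 20.6 CPM against 5.61, 4.77 and 3.92 CPM (-1.80, SE 0.373). Adequate replicate 1 was highest for Gm22973 (219 CPM against 92.9 and 116 in the other adequate libraries) and lowest for Gm4876, and without it edgeR called Gm4876 (-2.18, adjusted p = 0.0231). Pccb stood between 20.9 and 23.3 CPM in the restricted and between 23 and 30.6 CPM in the supplemented libraries, and Cryl1 between 28.8 and 33.5 CPM and between 26 and 37.9 CPM.

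**Figure D1:**
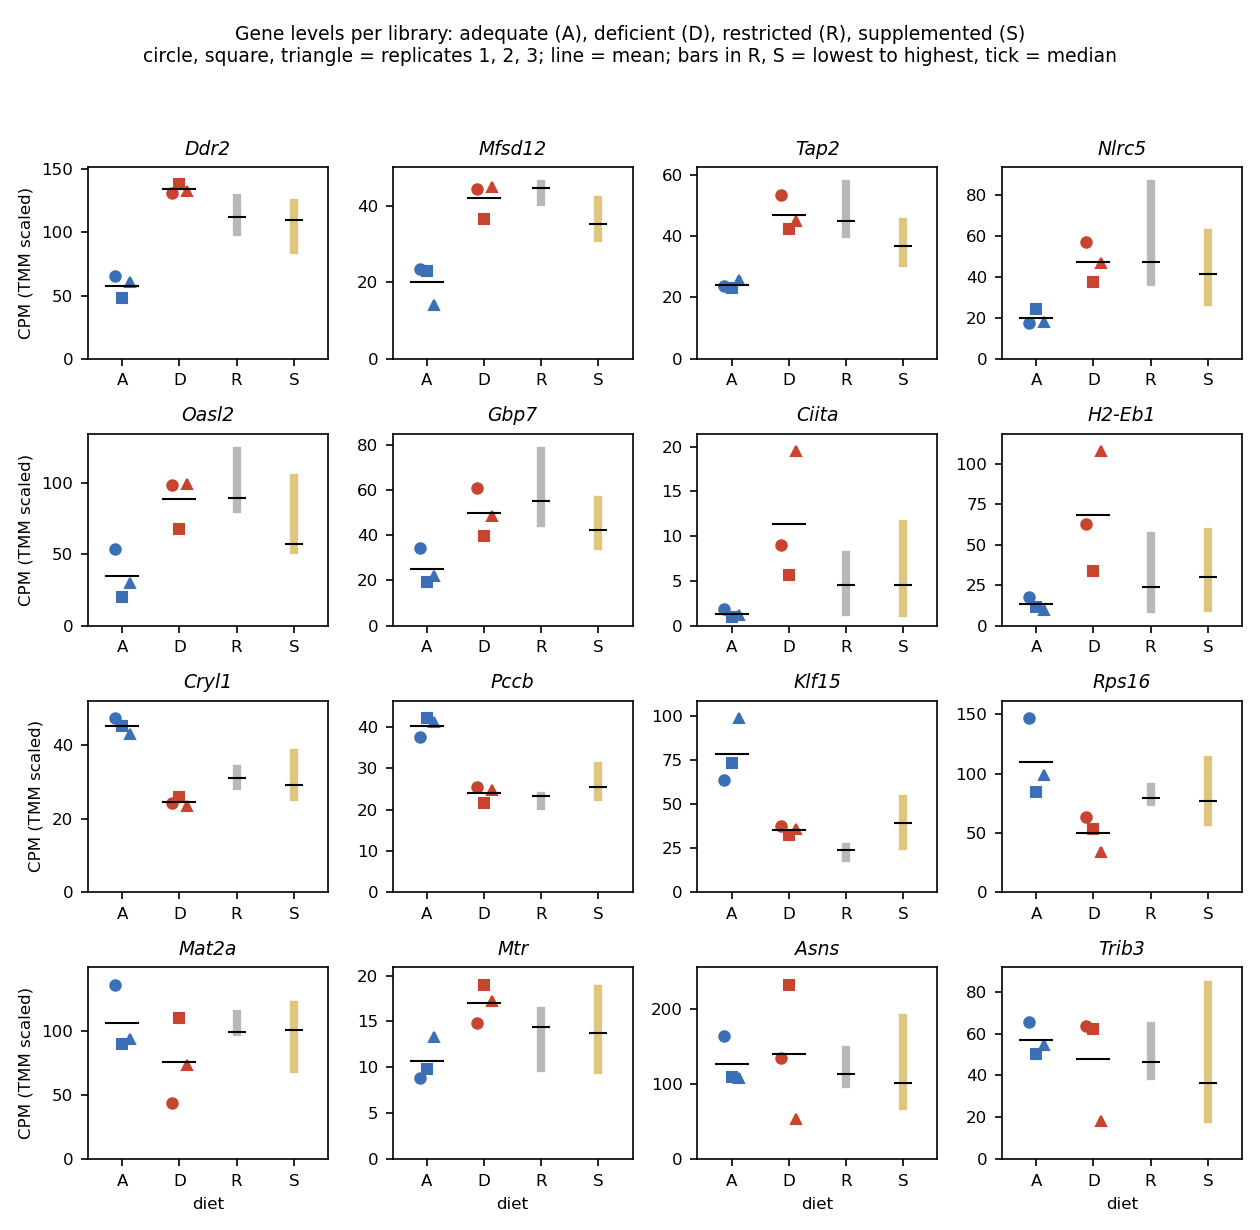
CPM of 16 named genes (y axis, linear from 0) in the adequate (A) and deficient (D) libraries, each point a library and each line a mean, with the lowest to highest value of the restricted (R) and supplemented (S) libraries as bars and their median as a tick. Ddr2, Tap2, Nlrc5, Cryl1 and Pccb do not overlap between A and D, which for Tap2, Cryl1 and Pccb was part of their choice. The amino acid response genes Asns and Trib3 overlap, with deficient replicate 3 (triangle) lowest.

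Genes that make and use methionine gave values on both sides of 0. Of the 16 methionine cycle genes tested, 7 had a fold change above 0 and 9 below, with a median of -0.11; over all genes tested, 8464 of 16001 were above 0 (52.9%) with a median of 0.04. Mat2a, the S-adenosylmethionine synthetase of most tissues, stood at 136, 90 and 93.6 CPM in adequate and 43.7, 110 and 73.5 CPM in deficient libraries (-0.49, SE 0.276, edgeR adjusted p = 0.411). The groups overlapped, and deficient replicates 1 and 2 lay further apart than the group means. Mat2b, its regulatory subunit, stood at 34.6, 23.8 and 23.6 CPM against 21.8, 19 and 20.3 CPM (-0.42, SE 0.199, adjusted p = 0.329).

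Among single enzymes, Mtr, methionine synthase, stood at 8.88, 9.78 and 13.3 CPM in adequate and 14.8, 19 and 17.2 CPM in deficient libraries, without overlap (0.67, SE 0.26, adjusted p = 0.25). Ahcyl2, a relative of S-adenosylhomocysteine hydrolase, stood at 46.6, 65.5 and 62.4 CPM against 77.2, 73.9 and 111 CPM, also without overlap (0.59, SE 0.215, adjusted p = 0.23). Ahcy, the hydrolase itself, overlapped, at 119, 59.5 and 86.6 CPM against 105, 122 and 72.3 CPM (0.18, SE 0.268). At an unadjusted p under 0.05 the cycle had 2 higher members (Mtr and Ahcyl2) and 1 lower (Mat2b) among 16, near the shares of 9.29% and 5.84% over all genes, and none kept it in every left-out fit. Over the 6 left-out fits the median of the cycle ran from -0.17 to 0.04, and it was 0.12 without both adequate replicate 1 and deficient replicate 3.

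In the salvage pathway the median was -0.21, and 8 of 10 members were below 0. Mtap, which splits methylthioadenosine in its opening step, stood at 170, 107 and 132 CPM in adequate and 96.4, 104 and 57.5 CPM in deficient libraries (-0.66, SE 0.29, adjusted p = 0.297). The groups were separated by the small gap between 107 and 104 CPM. The polyamine list, which draws on S-adenosylmethionine, had a median of -0.28, and 14 of its 18 members were below 0. Odc1, the rate-limiting ornithine decarboxylase, stood at 463, 302 and 302 CPM against 277, 350 and 145 CPM (-0.47, SE 0.305), and Oaz1, the antizyme that targets it for degradation, at 667, 339 and 387 CPM against 352, 234 and 295 CPM (-0.66, SE 0.252, adjusted p = 0.248). In each of Mtap, Odc1 and Oaz1 adequate replicate 1 was the highest library. Without that replicate the medians were -0.11 for salvage and -0.21 for polyamines, without deficient replicate 3 they were -0.05 and -0.17, and without both 0.06 and -0.04.

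Transsulfuration genes had a median of 0.21 with 9 of 11 above 0, and the value rested on deficient replicate 3, without which it was -0.00. Cbs, the enzyme that commits homocysteine to cysteine, was scarce: 0.252, 0.1 and 0.318 CPM in adequate and 0.847, 0.552 and 3.44 CPM in deficient libraries. It reached at most 0.202 CPM in the restricted and 0.529 CPM in the supplemented libraries. Cbs thus passed the expression filter mainly through the deficient libraries, so no test of it is given. The serine and folate genes that supply methyl groups had a median of -0.06 with 7 of 17 above 0, and of -0.38 to 0.11 over the left-out fits. Their median was 0.33, with 13 of 17 above 0, without both adequate replicate 1 and deficient replicate 3. Phgdh, the entry enzyme of serine synthesis, stood at 219, 133 and 159 CPM against 155, 144 and 79.3 CPM (-0.43, SE 0.315), and Mthfd2, a mitochondrial folate enzyme, at 100, 79.2 and 78.5 CPM against 92.1, 121 and 39.7 CPM (-0.03, SE 0.295). Aldh1l1, which burns off folate-bound carbon, stood at 56.1, 108 and 141 CPM against 80.9, 56.2 and 48.4 CPM (-0.72, SE 0.271, adjusted p = 0.243), with the lowest adequate library inside the deficient range.

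The genes that ATF4 induces when amino acids are short were not higher as a group in the fit of all libraries. Of 37 tested, 14 had a fold change above 0 and the median was -0.06. The promoters of Asns and Trib3, textbook targets of this response, are shown because they carry the core of the amino acid response element (TGATGNAA, searched on both strands), in capitals. The windows run from 250 bases before to 50 bases after the RefSeq start in GRCm38.p6, which is not the build of the count files. The core was found in 11 of 42 promoters of the list (26.2%), belonging to 33 matched genes, and in 3.97% of all 32851 promoters in the table. A match is a description of the letters only.
Asns, chr6:7693160-7693459, minus strand: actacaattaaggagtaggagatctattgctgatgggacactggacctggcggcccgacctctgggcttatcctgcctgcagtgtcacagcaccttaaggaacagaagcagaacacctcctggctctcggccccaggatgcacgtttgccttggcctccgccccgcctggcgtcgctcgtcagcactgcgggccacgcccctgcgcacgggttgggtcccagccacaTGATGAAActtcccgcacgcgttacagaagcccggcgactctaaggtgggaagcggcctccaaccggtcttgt
Trib3, chr2:152344011-152344310, minus strand: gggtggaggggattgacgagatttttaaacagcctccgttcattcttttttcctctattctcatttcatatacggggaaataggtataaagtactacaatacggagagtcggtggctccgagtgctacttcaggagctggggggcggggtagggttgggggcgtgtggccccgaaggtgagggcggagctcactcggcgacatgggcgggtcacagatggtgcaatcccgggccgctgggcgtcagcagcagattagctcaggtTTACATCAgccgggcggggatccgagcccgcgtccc

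Asns, asparagine synthetase, stood at 164, 110 and 109 CPM in adequate and 135, 233 and 53.2 CPM in deficient libraries (0.14, SE 0.419, edgeR adjusted p = 0.903). The deficient libraries held both the highest and the lowest value of the 6. Trib3, a pseudokinase that feeds back on ATF4, stood at 65.6, 50.3 and 54.5 CPM against 63.9, 62.3 and 18.1 CPM (-0.24, SE 0.467, adjusted p = 0.841). Ddit3, the stress factor CHOP, stood at 65.8, 54.6 and 44.5 CPM against 88.2, 47.8 and 22.8 CPM (-0.05, SE 0.368), and Chac1, which degrades glutathione, at 34, 38.3 and 28 CPM against 35.2, 11.3 and 13.3 CPM (-0.74, SE 0.423). All 4 were low in deficient replicate 3, and Chac1 was also low in deficient replicate 2.

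The mean log2 CPM over the 37 response genes was 5.75, 5.75 and 5.62 in adequate libraries and 5.92, 5.93 and 5.02 in deficient libraries. Deficient replicates 1 and 2 thus lay above every adequate library and replicate 3 below all of them. Without deficient replicate 3 the median fold change was 0.11. In that fit 6 members were higher at an unadjusted p under 0.05, as were 659 of all 16564 genes. Without both adequate replicate 1 and deficient replicate 3 the median was 0.25, with 22 of 37 above 0. In the fit of all libraries 2 members were higher at such a p, as were 1487 of 16001 genes (9.29%). Those 2 were Atf5, a relative of ATF4, at 75.5, 49.1 and 48.7 CPM against 128, 156 and 52.5 CPM (0.96, SE 0.385, adjusted p = 0.266), and Slc7a3, a cationic amino acid transporter, at 0.504, 0.602 and 0.364 CPM against 0.636, 7.83 and 0.946 CPM (2.66, SE 1.14, adjusted p = 0.286). Slc7a3 was high mainly in deficient replicate 2.

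In the fit of all libraries, transporters, tRNA synthetases and sensors of amino acids were likewise spread around 0. The 27 transporters tested had a median of -0.07, and of -0.22 to 0.07 over the left-out fits. The member with the smallest p was Slc1a3, a glutamate transporter, at 0.63, 0.15 and 0.0909 CPM against 1.41, 0.401 and 21.3 CPM (4.73, SE 1.56, DESeq2 adjusted p = 0.0174). It overlapped and was highest in deficient replicate 3, without which its fold change was 1.66. Slc6a6, the taurine transporter, stood at 212, 740 and 617 CPM against 316, 270 and 307 CPM and also overlapped (-0.81, SE 0.327, adjusted p = 0.267). Slc7a7, which exports cationic amino acids, stood at 7.81, 4.66 and 4.5 CPM against 11.3, 9.58 and 9.25 CPM without overlap (0.83, SE 0.319, adjusted p = 0.249), and Slc7a11, the cystine importer, at 20.3, 24.8 and 26.8 CPM against 27.5, 14 and 12.7 CPM (-0.40, SE 0.513). The 23 cytosolic tRNA synthetase genes had a median of -0.02 with 11 above 0, and of -0.16 to 0.14 over the left-out fits. Their median was 0.18, with 17 above 0, without both adequate replicate 1 and deficient replicate 3. Of the 20 sensing genes, 14 were above 0 with a median of 0.17, which was 0.02 without adequate replicate 1. Rragc, a Rag GTPase that brings mTORC1 to the lysosome, was lower, at 108, 99.4 and 111 CPM in adequate and 73.9, 87.2 and 76 CPM in deficient libraries (-0.42, SE 0.139, adjusted p = 0.196), without overlap and kept in every left-out fit.

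DNA methylation genes had a median of 0.14 with 12 of 18 above 0, which was 0.08 without deficient replicate 3. Dnmt1, the maintenance methyltransferase, stood at 108, 122 and 213 CPM in adequate and 192, 228 and 136 CPM in deficient libraries (0.33, SE 0.247, adjusted p = 0.546). Tdg, a glycosylase that removes oxidised methylcytosine, was the member kept in every left-out fit, at 68, 76.8 and 62.2 CPM against 44, 38.7 and 36.4 CPM (-0.80, SE 0.215, adjusted p = 0.154). Its groups did not overlap. The glutathione and NRF2 target list, which reports oxidative stress, had a median of -0.20, and 19 of its 27 members were below 0.

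**Figure D2:**
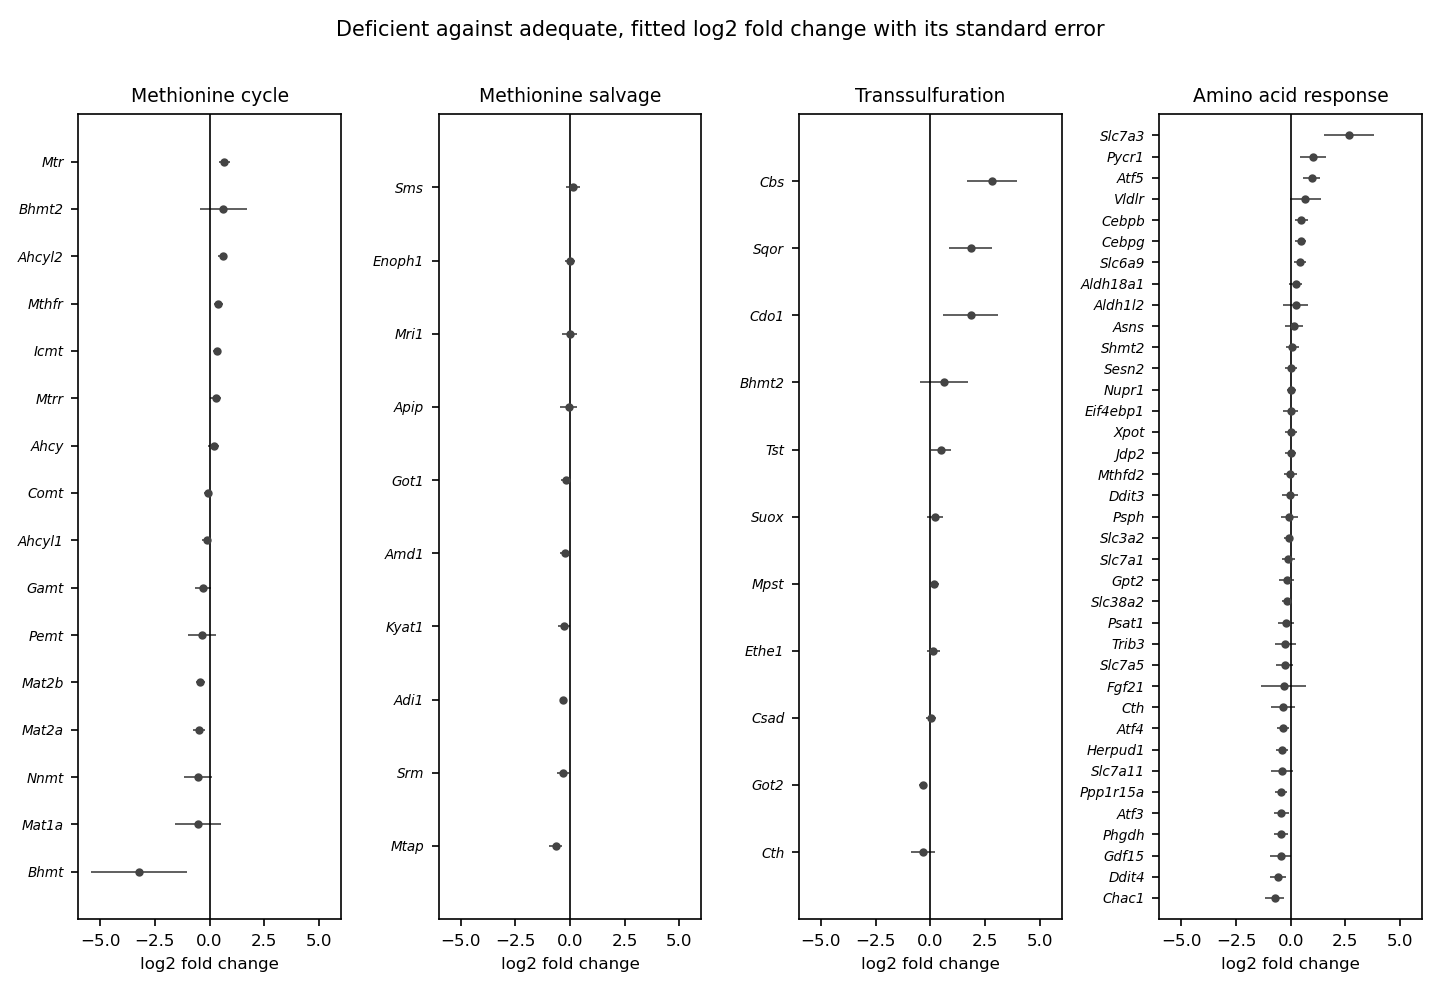
Fitted log2 fold change of deficient over adequate (x axis) with its standard error for the tested members of 4 lists, each row a gene sorted by its value. Values scatter to both sides of 0 in all 4 panels, with medians of -0.11, -0.21, 0.21 and -0.06.

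Interferon-stimulated genes were mostly higher in the deficient libraries. Interferons induce these antiviral genes, and interferon gamma also induces the guanylate-binding proteins and the MHC genes. Of 38 interferon-stimulated genes tested, 36 had a fold change above 0, with a median of 0.61 against 0.04 over all genes. At an unadjusted p under 0.05, 17 were higher and 0 were lower (9.29% and 5.84% of all genes), all 3 deficient libraries lay above all 3 adequate ones in 13 (7.91% of all genes), and DESeq2 called 7 (2.80%). Of the 13 interferon-inducible GTPases, some of which attack membranes around pathogens, all were above 0 with a median of 1.17. Of these, 11 had an unadjusted p under 0.05, 9 did not overlap and DESeq2 called 6. No member of either list passed edgeR's adjusted test over all genes.

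Members with the smallest p had varied roles. Rnf213, a giant ubiquitin ligase, stood at 250, 273 and 467 CPM in adequate and 741, 688 and 740 CPM in deficient libraries (1.13, SE 0.268, edgeR adjusted p = 0.149). Parp14, an ADP-ribosyltransferase, stood at 38.8, 30.6 and 28 CPM against 66.7, 48.8 and 99.9 CPM (1.14, SE 0.272, adjusted p = 0.149), and Oasl2, an oligoadenylate synthetase-like protein, at 53.8, 20.2 and 29.6 CPM against 98.6, 67.9 and 98.9 CPM (1.36, SE 0.332, adjusted p = 0.149). None of the 3 overlapped between diets. They were kept in every left-out fit, as were Oas2, Oasl1, Zbp1 and Dtx3l. The most familiar members, named after their values were seen, gave smaller values: Isg15 stood at 83.7, 18 and 27 CPM against 55.4, 42.4 and 27 CPM (-0.04, SE 0.423) and Cxcl10, a chemokine, at 113, 60 and 90.6 CPM against 146, 115 and 83.1 CPM (0.39, SE 0.351). Both overlapped.

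Adequate replicate 1 stood above the other adequate libraries in these genes. The mean log2 CPM of the 38 interferon-stimulated genes was 5.73, 4.77 and 5.05 in the adequate libraries and 6.17, 5.85 and 5.76 in the deficient libraries. For the 13 GTPases it was 3.99, 3.19 and 2.78 against 4.92, 4.30 and 5.05. No deficient library fell below an adequate library in either list. Without adequate replicate 1, the medians were 0.92 and 1.67. In that fit 30 of 38 and 13 of 13 members were higher at an unadjusted p under 0.05, against 1268 of all 16645 genes. The medians were 0.66 and 1.11 without deficient replicate 3, with 17 and 8 such members, against 659 of 16564 genes. The interferon-stimulated median was 0.39 with 9 such members without deficient replicate 1 (1525 of 16650 genes). It was 0.43 with 10 such members without adequate replicate 2 (1376 of 16693 genes). The restricted libraries had levels of 5.85 to 6.52 for the interferon-stimulated list and the supplemented libraries 5.52 to 6.19.

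The GTPases Gbp7 and Irgm2 are shown by their promoters because each carries the core of the interferon-stimulated response element (GAAANNGAA, both strands), in capitals. The windows are defined as above. The core was found in 8 of 9 promoters of the GTPase list (88.9%, 8 of 13 genes matched), in 16 of 31 promoters of the interferon-stimulated list (51.6%, 28 of 38 genes matched) and in 8.56% of all promoters. Members without the letters in this window included Oasl2 and Rnf213.
Gbp7, chr3:142530086-142530385, plus strand: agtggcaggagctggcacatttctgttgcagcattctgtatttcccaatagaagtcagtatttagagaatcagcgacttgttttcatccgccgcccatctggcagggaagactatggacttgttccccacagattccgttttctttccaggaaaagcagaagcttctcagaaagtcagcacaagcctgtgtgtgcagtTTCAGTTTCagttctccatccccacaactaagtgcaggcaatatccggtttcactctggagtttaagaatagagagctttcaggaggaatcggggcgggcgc
Irgm2, chr11:58214727-58215026, plus strand: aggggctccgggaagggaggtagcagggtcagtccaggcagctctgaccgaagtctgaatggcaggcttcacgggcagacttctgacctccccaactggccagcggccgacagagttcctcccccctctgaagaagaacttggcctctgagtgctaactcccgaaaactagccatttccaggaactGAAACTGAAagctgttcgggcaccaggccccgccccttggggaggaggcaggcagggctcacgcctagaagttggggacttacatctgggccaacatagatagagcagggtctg

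Gbp7, a guanylate-binding protein, stood at 34.5, 19.1 and 22.1 CPM in adequate and 61.2, 39.6 and 48.8 CPM in deficient libraries (0.99, SE 0.265, edgeR adjusted p = 0.152). Irgm2, an immunity-related GTPase, stood at 43.4, 27.6 and 25.7 CPM against 68.5, 42.2 and 63.1 CPM (0.85, SE 0.252, adjusted p = 0.174). Gbp7 did not overlap between diets, and Irgm2 did because adequate replicate 1 (43.4 CPM) passed deficient replicate 2. Both were kept in every left-out fit, together with Igtp, Gbp2, Gbp3 and Gbp4.

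MHC class I genes, which show peptides from inside the cell to CD8 T cells, gave smaller values. Of 16 tested, 14 were above 0 with a median of 0.57, 7 were higher at an unadjusted p under 0.05 (9.29% of all genes) and 8 did not overlap (7.91%). The median was 0.38 without adequate replicate 3. The mean log2 CPM of the list was 6.59, 6.17 and 6.00 in adequate and 6.85, 6.47 and 6.89 in deficient libraries. It ran from 6.46 to 7.09 in the restricted and from 6.24 to 6.72 in the supplemented libraries. The members kept in every left-out fit were the peptide transporter genes Tap1 and Tap2, the trimming enzyme Erap1 and Nlrc5, the transactivator of the class I promoters. Nlrc5 stood at 17.6, 24.1 and 18.2 CPM in adequate and 57.3, 37.6 and 46.9 CPM in deficient libraries (1.24, SE 0.309, edgeR adjusted p = 0.149), and Erap1 at 17.1, 20.6 and 19.6 CPM against 30.5, 29.1 and 50.2 CPM (0.94, SE 0.247, adjusted p = 0.15). B2m, the shared light chain, stood at 1054, 823 and 870 CPM against 1457, 1098 and 1173 CPM (0.44, SE 0.275, adjusted p = 0.46). The groups did not overlap in these 3, although for B2m the gap between 1054 and 1098 CPM was small. Psme2, a subunit of the proteasome activator named after its values were seen, stood at 94.5, 44.9 and 38.7 CPM against 43, 27.1 and 40.2 CPM. Its fold change was negative (-0.69, SE 0.337), but the groups overlapped and adequate replicate 1 was far above the rest.

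MHC class II genes, which show peptides from outside the cell to CD4 T cells and are made by dendritic cells, macrophages and B cells or under interferon gamma, were higher in every deficient library by their mean level. All 12 tested were above 0 with a median of 2.17. At an unadjusted p under 0.05, 9 were higher (9.29% of all genes), 9 did not overlap (7.91%) and DESeq2 called 5 (2.80%); edgeR's adjusted test passed 0. The mean log2 CPM of the list was 2.91, 2.75 and 2.73 in adequate and 4.40, 3.84 and 5.50 in deficient libraries, so that the adequate libraries lay close together and every deficient library above them. Restricted libraries ran from 2.75 to 4.22 and supplemented libraries from 2.74 to 4.45.

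H2-Eb1 and H2-Aa, the genes of a beta and an alpha chain, are shown by their promoters because each carries the letters CTGATTGG of the Y box, in capitals, which is a part of the class II promoter that the factor NF-Y binds. This motif was added after the data were seen. It was searched on both strands in the same windows and was found in 3 of 11 promoters of the class II list (27.3%), 5 of 16 of the class I list (31.2%) and 4.10% of all promoters. It was also found in 9 of 42 promoters of the amino acid response list (21.4%).
H2-Eb1, chr17:34305617-34305916, plus strand: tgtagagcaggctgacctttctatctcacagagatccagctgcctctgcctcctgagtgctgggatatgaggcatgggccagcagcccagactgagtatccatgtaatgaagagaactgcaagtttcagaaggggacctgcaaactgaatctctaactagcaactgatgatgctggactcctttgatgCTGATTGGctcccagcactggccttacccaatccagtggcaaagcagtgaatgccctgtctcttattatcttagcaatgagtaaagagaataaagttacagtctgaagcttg
H2-Aa, chr17:34287774-34288073, minus strand: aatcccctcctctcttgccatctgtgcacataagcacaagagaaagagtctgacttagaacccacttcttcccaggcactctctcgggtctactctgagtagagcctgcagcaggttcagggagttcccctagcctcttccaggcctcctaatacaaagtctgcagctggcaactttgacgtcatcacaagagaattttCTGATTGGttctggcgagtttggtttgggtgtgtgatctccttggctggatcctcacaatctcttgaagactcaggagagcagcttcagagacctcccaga

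H2-Eb1 stood at 17.9, 11.5 and 9.91 CPM in adequate and 62.7, 33.8 and 108 CPM in deficient libraries (2.38, SE 0.625, edgeR adjusted p = 0.15). Ciita, the transactivator that switches class II genes on, stood at 1.89, 0.903 and 1.23 CPM against 8.97, 5.62 and 19.5 CPM (3.08, SE 0.85, adjusted p = 0.157), and H2-DMa, which helps peptide exchange, at 3.28, 4.56 and 3.82 CPM against 13.6, 5.62 and 31.3 CPM (2.11, SE 0.601, adjusted p = 0.166; 1.31 without deficient replicate 3). In all 3 the order of the deficient libraries was the same, with replicate 3 highest and replicate 2 lowest but above every adequate library. H2-Aa, H2-Ab1 and Cd74, the invariant chain, were the other members kept in every left-out fit. The median of the list was 1.55 when deficient replicate 3 was left out. In that fit 7 members were higher at a p under 0.05 before adjustment, against 659 of all 16564 genes. With the mean level of the alveolar lists as a covariate the median was 1.60.

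Macrophage and lymphocyte markers had mostly positive fold changes, whereas the neutrophil list had a median of -0.04. The macrophage list had 23 of 24 members above 0 with a median of 0.75, and its summed level was 386 to 890 CPM in adequate and 694 to 2807 CPM in deficient libraries. The mean log2 CPM of its members overlapped, at 3.95, 3.83 and 3.18 against 4.32, 3.89 and 4.98. Csf1r, the receptor for macrophage colony-stimulating factor, stood at 14.1, 23.4 and 11.9 CPM against 34.7, 24.2 and 96.5 CPM (1.65, SE 0.483, adjusted p = 0.168), and Adgre1, which encodes a surface receptor of mouse macrophages, at 18.2, 8.22 and 5.68 CPM against 28.5, 18.5 and 29 CPM (1.25, SE 0.43, adjusted p = 0.213). Both gaps between the groups were narrow, at 23.4 to 24.2 CPM and 18.2 to 18.5 CPM. Without deficient replicate 3 the fold change of Csf1r was 0.84 and the macrophage median 0.37. Siglec1 was the member kept in every left-out fit. The part of immune cell numbers in the class II and interferon values was not tested.

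Lymphocyte markers were scarce. All 24 tested were above 0 with a median of 1.77, but the summed level of the list was 23.6 to 33.6 CPM in adequate and 45.3 to 147 CPM in deficient libraries, and 5 members had an unadjusted p under 0.05 (9.29% of all genes). Ptprc, the CD45 gene of all white blood cells, stood at 9.70, 8.68 and 5.37 CPM against 18.1, 12.8 and 45 CPM (1.68, SE 0.509, adjusted p = 0.175). Cd8a, of cytotoxic T cells, stood at 0.063, 0.301 and 0.318 CPM against 2.05, 0.351 and 3.78 CPM (3.12, SE 1.12, adjusted p = 0.225), so that deficient replicate 2 was close to the adequate libraries. Without deficient replicate 3 the median was 0.96.

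Among checkpoint genes, 12 of 13 were above 0 with a median of 0.24, which was 0.63, 0.57 and 0.45 without adequate replicates 1, 2 and 3 in turn. Cd274, which encodes PD-L1, stood at 18.1, 15.1 and 11.6 CPM in adequate and 33.5, 18.5 and 27.5 CPM in deficient libraries (0.83, SE 0.364, edgeR adjusted p = 0.298), with a gap of 18.1 to 18.5 CPM between the groups. Vsir, the VISTA checkpoint gene, stood at 9.64, 24.9 and 7.59 CPM against 27.3, 23.7 and 85 CPM and overlapped (1.69, SE 0.488, adjusted p = 0.167; 0.86 without deficient replicate 3). Chemokine genes had 21 of 24 members above 0 with a median of 0.84. Cxcl12, a stromal chemokine, stood at 9.20, 13.4 and 6.5 CPM against 17.7, 31.6 and 138 CPM (2.68, SE 0.584, adjusted p = 0.149) and Cx3cl1, which draws monocytes, at 2.02, 2.01 and 1.23 CPM against 5.83, 3.41 and 38.8 CPM (3.19, SE 0.808, adjusted p = 0.149). Both were highest in deficient replicate 3, without which their fold changes were 1.34 and 1.40, did not overlap and were kept in every left-out fit.

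**Figure D3:**
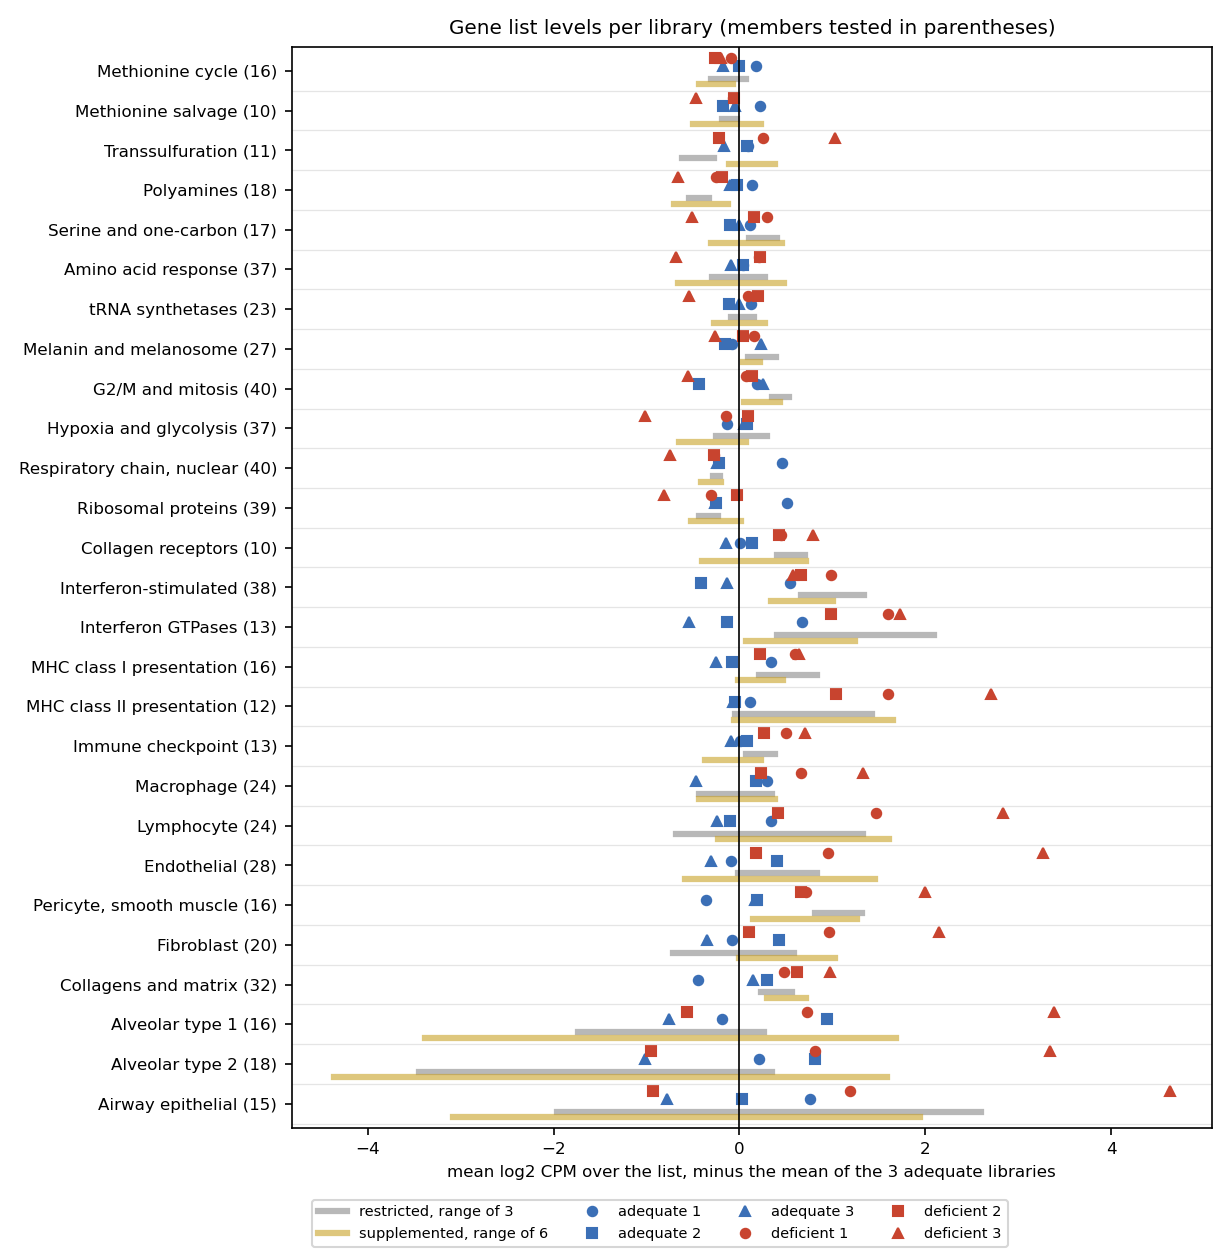
Mean log2 CPM over each gene list in each library, minus the mean of the 3 adequate libraries (x axis), with the members tested in parentheses. Blue and red points are the adequate and deficient libraries, and grey and yellow bars span the 3 restricted and 6 supplemented libraries; class II genes separate the diets in every library, while deficient replicate 3 (red triangle) lies far to the right in the vessel and lung lists.

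Vessel and stroma genes had mostly positive fold changes, carried in large part by deficient replicate 3. All 28 endothelial genes tested were above 0 with a median of 2.13, 25 were higher at an unadjusted p under 0.05 (9.29% of all genes), 13 did not overlap (7.91%) and DESeq2 called 13 (2.80%). Their mean log2 CPM was 3.41, 3.90 and 3.19 in adequate and 4.45, 3.68 and 6.77 in deficient libraries, which overlapped. Without deficient replicate 3 the median was 0.60. In that fit 5 members were higher at an unadjusted p under 0.05, against 659 of all 16564 genes. Pecam1, the CD31 gene, stood at 28, 39.6 and 25.9 CPM against 55.8, 42.5 and 326 CPM (2.18, SE 0.659, edgeR adjusted p = 0.175). Aplnr, the apelin receptor of sprouting vessels, stood at 5.98, 3.01 and 7.05 CPM against 14.5, 8.33 and 51.2 CPM (2.2, SE 0.549, adjusted p = 0.149), and Emcn, endomucin, at 6.30, 4.86 and 5.37 CPM against 8.4, 12.4 and 28.2 CPM (1.56, SE 0.395, adjusted p = 0.149). Aplnr and Emcn were kept in every left-out fit, with Robo4, Icam2 and Sox18. Without deficient replicate 3 the fold changes were 0.66 for Pecam1, 1.1 for Aplnr and 0.92 for Emcn.

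Pericyte and smooth muscle genes had a median of 1.31 with 16 of 16 above 0, and fibroblast genes a median of 1.1 with 19 of 20. Notch3, a receptor of mural cells, stood at 4.28, 15.8 and 14.8 CPM in adequate and 21.3, 23.8 and 97.8 CPM in deficient libraries (2.03, SE 0.566, adjusted p = 0.16), and Cspg4, the NG2 gene, at 4.54, 16.6 and 8.46 CPM against 19.7, 33.3 and 28.9 CPM (1.46, SE 0.453, adjusted p = 0.182). Thy1, a surface protein of fibroblasts, stood at 4.28, 2.11 and 4.09 CPM against 9.15, 11.3 and 11.8 CPM (1.62, SE 0.492, adjusted p = 0.176), and Col1a1, of fibrillar collagen I, at 44.9, 112 and 104 CPM against 160, 189 and 222 CPM (1.13, SE 0.462, adjusted p = 0.268). None of the 4 overlapped. With deficient replicate 3 left out, the medians were 0.69 and 0.71, and the fold change of Notch3 was 0.95.

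The matrix list had 26 of 32 members above 0 with a median of 0.77, 13 higher at an unadjusted p under 0.05 (9.29% of all genes) and 9 called higher by DESeq2 (2.80%). Col12a1 and Col14a1, collagens that bind to fibril surfaces, stood at 13.6, 16.5 and 19.5 CPM against 33.2, 35.8 and 68.6 CPM (1.47, SE 0.344, adjusted p = 0.149) and at 3.02, 5.52 and 7.46 CPM against 12.5, 12.5 and 17 CPM (1.39, SE 0.349, adjusted p = 0.149). Col6a3, of the beaded filaments, stood at 20.9, 39.9 and 36.6 CPM against 63.7, 85.4 and 118 CPM (1.45, SE 0.346, adjusted p = 0.149). The 3 did not overlap, and without deficient replicate 3 the fold changes of Col12a1, Col14a1 and Col6a3 were 1.06, 1.23 and 1.20. Col15a1, Nid1, Postn, Tnc and Fbn1 were the other members kept in every left-out fit. The matrix median was 0.45 without deficient replicate 3, 0.45 without adequate replicate 1 and 0.22 without both. The mean log2 CPM of the list was 4.98, 5.73 and 5.58 in adequate and 5.91, 6.05 and 6.40 in deficient libraries. It ran from 5.66 to 6.00 in the restricted and from 5.73 to 6.15 in the supplemented libraries.

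The collagen receptors, the family of Ddr2, had 8 of 10 members above 0 with a median of 0.49, which was 0.46 without deficient replicate 3. Ddr1, the epithelial relative of Ddr2, stood at 75.4, 90.5 and 109 CPM in adequate and 133, 167 and 108 CPM in deficient libraries and overlapped (0.57, SE 0.232, edgeR adjusted p = 0.268). Mrc2, an endocytic receptor that takes up collagen, stood at 3.91, 5.32 and 3.68 CPM against 13.1, 9.33 and 71.3 CPM (2.85, SE 0.658, adjusted p = 0.149), and Itga1, a collagen-binding integrin, at 15.7, 23.6 and 17.3 CPM against 29.8, 27.3 and 95.2 CPM (1.42, SE 0.462, adjusted p = 0.194). Mrc2 and Itga1 were highest in deficient replicate 3, without which their fold changes were 1.38 and 0.60, whereas Ddr2 was even across the deficient libraries.

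Markers of normal lung gave large medians that rested on deficient replicate 3. The medians were 2.18 for alveolar type 1, 2.00 for alveolar type 2 and 2.82 for airway genes, yet 0 members of the 3 lists were free of overlap between diets. Without deficient replicate 3 the medians were 0.03, -0.01 and 0.19. Sftpc stood at 256, 266 and 42.7 CPM in adequate and 319, 37.3 and 2159 CPM in deficient libraries (2.15, SE 1.61, edgeR adjusted p = 0.541), and Cyp2f2, an enzyme of airway club cells, at 5.73, 2.71 and 0.955 CPM against 32.2, 1.45 and 847 CPM (6.57, SE 2.39, adjusted p = 0.228). These were -0.08 and 2.45 without deficient replicate 3. Deficient replicate 2 held less lung RNA by these genes than adequate replicates 1 and 2. The part of normal lung RNA in the vessel, stroma and immune values was not tested. With the level of the alveolar lists as a covariate, the endothelial median was 1.02, against 2.13 without the covariate. Likewise, the medians were 1.1 against 1.31 for pericyte and 0.70 against 1.1 for fibroblast genes. Among immune lists they were 0.54 against 0.61 for interferon-stimulated, 1.15 against 1.17 for GTPase and 0.38 against 0.57 for class I genes. The lymphocyte median was 1.08 against 1.77 and the macrophage median 0.58 against 0.75, whereas the checkpoint median was 0.30 against 0.24.

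**Figure D4:**
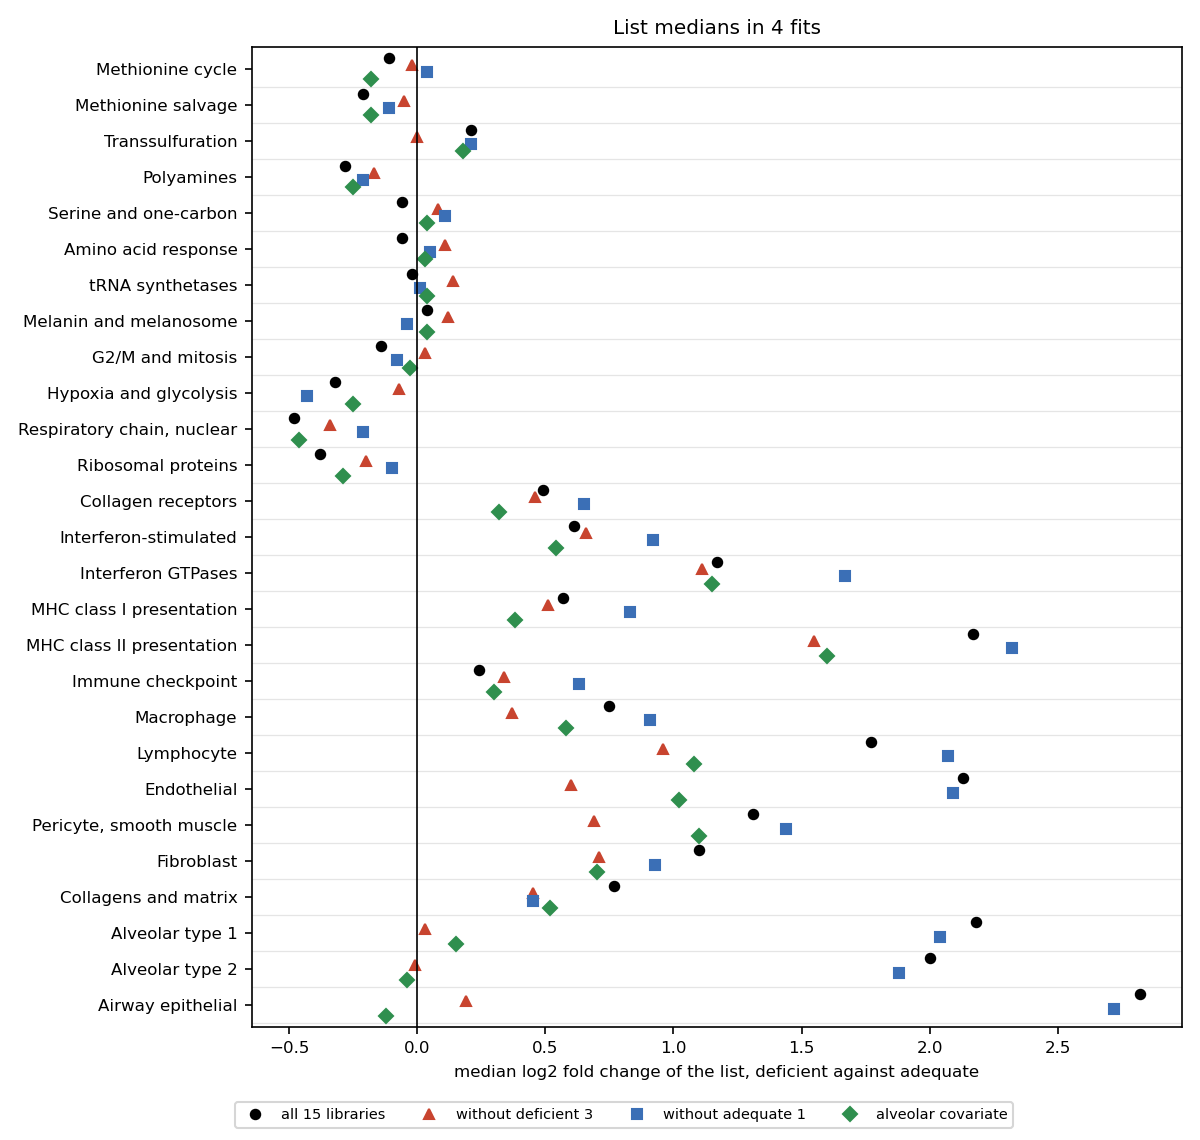
Median log2 fold change of each list, deficient over adequate (x axis), in the fit of all 15 libraries (black), without deficient replicate 3 (red), without adequate replicate 1 (blue) and with the level of the alveolar lists as a covariate (green). The alveolar medians fall from 2.18 and 2.00 to 0.03 and -0.01 without deficient replicate 3, whereas the interferon GTPase median is 1.11 and the class II median 1.55.

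Pigment genes had a median of 0.04 with 15 of 27 above 0, and of -0.11 to 0.16 over the left-out fits. Tyr, the rate-limiting pigment enzyme, stood at 760, 521 and 815 CPM in adequate and 670, 558 and 362 CPM in deficient libraries (-0.40, SE 0.224, edgeR adjusted p = 0.408), and Mitf, the master regulator of melanocytes, at 449, 325 and 371 CPM against 415, 432 and 344 CPM (0.06, SE 0.2, adjusted p = 0.917). Mlana, the melanoma antigen MART-1, stood at 907, 631 and 931 CPM against 609, 482 and 425 CPM, without overlap and kept in every left-out fit (-0.70, SE 0.238, adjusted p = 0.205). The G2/M and G1/S lists of dividing cells had medians of -0.14 and -0.15, which ran from -0.30 and -0.33 without adequate replicate 2 to 0.03 and 0.09 without deficient replicate 3. Without both adequate replicate 1 and deficient replicate 3 the medians were 0.13 and 0.24. Mki67, a marker of cycling cells, stood at 61.4, 94.7 and 198 CPM against 167, 203 and 158 CPM (0.57, SE 0.301, adjusted p = 0.377), and Myc at 43.7, 40.4 and 41.5 CPM against 35.7, 46.2 and 39 CPM (-0.06, SE 0.174, adjusted p = 0.903).

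The list of genes linked to loss of the pigmented state had 19 of 22 members above 0 with a median of 0.83, and 0.37 without deficient replicate 3. Axl, a receptor tyrosine kinase that fibroblasts and macrophages also make, stood at 77.9, 98.6 and 107 CPM in adequate and 230, 188 and 195 CPM in deficient libraries (1.11, SE 0.365, adjusted p = 0.196). Its groups did not overlap, and replicate 3 was not the highest. Zeb1, a factor of mesenchymal cells, stood at 1.57, 4.76 and 2.41 CPM against 9.46, 6.47 and 39.6 CPM (2.65, SE 0.637, adjusted p = 0.149), highest in replicate 3, without which its fold change was 1.45. Axl, Zeb1 and Jun were kept in every left-out fit.

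Genes of the respiratory chain and of the ribosome had mostly negative fold changes, which depended on adequate replicate 1 and deficient replicate 3. Of 40 nuclear respiratory chain genes, 39 were below 0 with a median of -0.48, 21 had an unadjusted p under 0.05 (5.84% of all genes) and 14 lay below every adequate library (7.96% of all genes). Of 39 ribosomal protein genes, 38 were below 0 with a median of -0.38 and 7 had such a p. Adequate replicate 1 stood apart here: the mean log2 CPM of the respiratory list was 7.21, 6.53 and 6.51 in adequate and 6.48, 6.48 and 6.00 in deficient libraries. That of the ribosomal list was 8.38, 7.62 and 7.61 against 7.56, 7.84 and 7.06, with deficient replicate 2 above adequate replicates 2 and 3. Without adequate replicate 1 the medians were -0.21 and -0.10, without deficient replicate 3 they were -0.34 and -0.20, and without both they were -0.06 and 0.08, with 28 of 39 ribosomal genes then above 0. The 13 genes of the mitochondrial genome had a median of -0.03, which was -0.36 without adequate replicate 1 and -0.57 without deficient replicate 3.

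Some members were lower beyond that library. Ndufa8, a subunit of complex I, stood at 50.7, 35.9 and 38.2 CPM in adequate and 25.3, 29.9 and 23.8 CPM in deficient libraries (-0.66, SE 0.166, edgeR adjusted p = 0.149), and Ndufv1, another, at 92.7, 76.4 and 71.2 CPM against 55.1, 53.1 and 36.9 CPM (-0.73, SE 0.212, adjusted p = 0.168). Cox4i1, of complex IV, stood at 591, 292 and 282 CPM against 247, 233 and 173 CPM (-0.83, SE 0.246, adjusted p = 0.17; -0.41 without adequate replicate 1). With Uqcrc2 of complex III, these were the respiratory genes kept in every left-out fit. Rps16, of the small ribosomal subunit, stood at 147, 84.7 and 98.7 CPM against 63.3, 53.1 and 33.7 CPM (-1.14, SE 0.268, adjusted p = 0.149); ribosomal protein genes have many processed copies, so their counts are uncertain.

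Hypoxia and glycolysis genes had 29 of 37 members below 0 with a median of -0.32, which was -0.07 without deficient replicate 3 and -0.52 without deficient replicate 2. Bnip3l, a receptor for the removal of mitochondria, was the member kept in every left-out fit, at 223, 192 and 197 CPM in adequate and 131, 111 and 101 CPM in deficient libraries (-0.83, SE 0.232, edgeR adjusted p = 0.159). Ldha, lactate dehydrogenase A, stood at 1461, 1217 and 1248 CPM against 887, 1034 and 370 CPM (-0.78, SE 0.311, adjusted p = 0.264). Neither overlapped, and both were lowest in deficient replicate 3. Klf15, a glucocorticoid-induced factor of amino acid breakdown, stood at 63.9, 73.2 and 98.8 CPM against 37.5, 32.7 and 35.8 CPM (-1.15, SE 0.277, adjusted p = 0.149), without overlap and kept in every left-out fit. It was the lowest member of its list, whose median was 0.08 in 18 genes and -0.47 without deficient replicate 3. Klf15 stood between 19.3 and 25.9 CPM in the restricted and between 26.4 and 52.8 CPM in the supplemented libraries.

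Transcripts of liver-made plasma proteins were present at low counts in the adequate libraries, and Alb, Fgb and Serpina1a had 0 counts in the deficient libraries. Alb, serum albumin, had 364, 259 and 87 counts in the adequate libraries and 0 in each deficient library, which is at least 279-fold lower by the limit of 3 counts over the deficient group. Of the 12 other libraries, deficient included, 9 had 0 counts and the highest had 28. Fgb, of fibrinogen, had 50, 33 and 15 counts against 0 in each deficient library (at least 38.4-fold lower), and Serpina1a, an antitrypsin, 47, 31 and 18 counts against 0 (at least 37.4-fold lower), with 0 in all 12 other libraries. Apoa1, Apoa2 and Ttr had 75, 21 and 15 counts, 65, 66 and 28 counts, and 41, 19 and 9 counts in adequate libraries, against 0, 3 and 5, 13, 45 and 1, and 6, 2 and 4 in deficient libraries. The counts of Apoa2 overlapped between the diets, and those of Apoa1 and Ttr did not. Alb, Fgb and Serpina1a entered the tests through the adequate libraries, so no test of them is given. This limit covers counting error only, and the source of these reads was not tested.

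**Figure D5:**
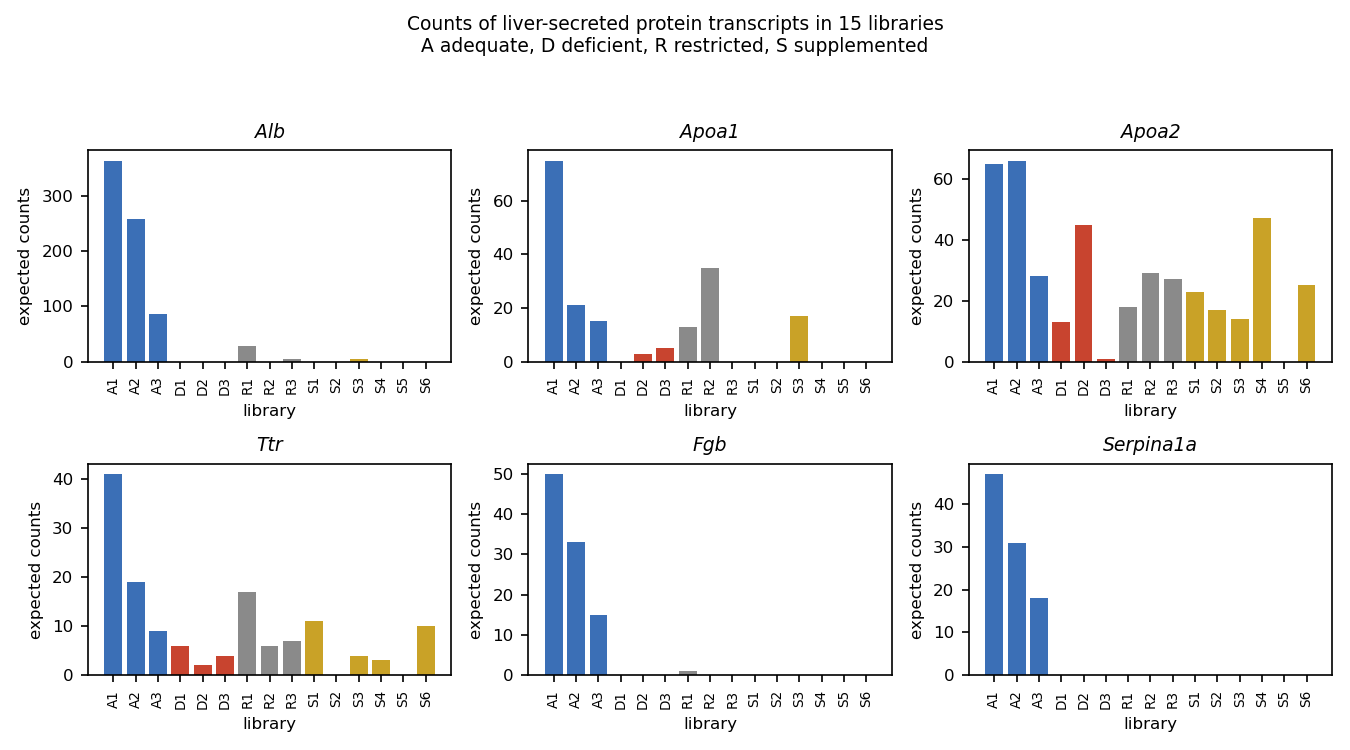
Expected counts (y axis, linear from 0) of 6 liver-made plasma protein genes in each of the 15 libraries, coloured by diet. Alb, Fgb and Serpina1a reach 87 to 364, 15 to 50 and 18 to 47 counts in the 3 adequate libraries, and at most 28, 1 and 0 counts in any other library.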

How the data were processed

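Lung metastases of B16-F10.1 melanoma from mice on 4 methionine diets were measured by RNA sequencing in 15 libraries, grouped by the diet in the labels. The deposited tables hold RSEM expected counts per gene, made by the authors. The submitters' processing notes name Bowtie2 2.2.9, RSEM 1.30, edgeR and the mouse build NCBIM37; the annotation release, the strand setting and any read filtering were not given in the sources used here. Expected counts were rounded to whole numbers. Symbols came from a reference table that matched 32897 of 37620 gene IDs. The 4723 IDs without a symbol stayed in library sizes and tests.

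Genes passing edgeR's default expression filter (16001) were fitted with TMM scaling and edgeR's quasi-likelihood test (edgeR 4.0.16, R 4.3.3) over all 4 diets, which share 1 estimate of the spread (11 residual degrees of freedom, biological coefficient of variation 0.461), with Benjamini-Hochberg adjustment over all genes and a threshold of 0.05. Alternatives were DESeq2 1.42.0, limma-voom (limma 3.58.1), other scalings and filters, the 6 libraries alone, an alveolar covariate, and leaving out each of the 6 libraries. The filter runs over all libraries, so a gene could pass through the group in which it is high. Totals of 13714670 to 29994264 counts per library limit precision mainly for genes under about 1 CPM. The fits were tested on simulated data.

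The comparison and its 47 gene lists (1026 of 1036 entries matched) were chosen with earlier results of these data known. Named genes are those called; the 8 higher and 8 lower genes of smallest p with a symbol, a mean log2 CPM of at least 1 and groups that do not overlap; the 3 members of smallest p of each list described; and a fixed set of pathway and marker genes. Not every gene of this rule is printed. Promoters are RefSeq sequences of GRCm38.p6, used for sequence only.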

Additional observations from a re-analysis of the deposited data

How the results depend on the processing

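The number of genes called was 1 with limma-voom, and in edgeR it was also 1 with RLE size factors, with structural RNA left out, with unnamed IDs also left out (an alternative chosen after seeing the data) and with a minimum of 1 CPM in 3 libraries. It was 0 with upper quartile scaling, with no filter on low counts, with the deficient and adequate libraries alone, with the alveolar marker covariate, and without both adequate replicate 1 and deficient replicate 3. At an unadjusted p under 0.05 these 5 fits had 2444, 2688, 1326, 1997 and 1521 genes. DESeq2 called 588 genes. Leaving out each library in turn gave 0 to 4 calls, with 4 without adequate replicate 1 and 0 without each of the other 5. The cause of these differences was not tested. Ddr2 kept its direction in all 17 alternatives, with an edgeR adjusted p of 0.0705 with upper quartile scaling, 0.0540 with no filter, 0.0700 with the alveolar covariate and 0.0646 without both libraries.

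Over the 91 genes followed, 1540 values were recomputed and 1454 kept their direction and their side of the threshold. Only Ddr2 had passed the threshold in the main fit, and it lost its call in 10 alternatives. For the other genes this count covers sign and calls, not size. Cyp2f2 ran from 1.21 to 7.31 and Itga1 from 0.47 to 1.72 without a change of direction. DESeq2 called 51 genes that edgeR did not. Direction reversed in 24 values of 11 genes, none of which had passed the test. With limma-voom, Asns was -0.09. With the alveolar covariate, Mthfd2 was 0.06, Myc 0.00 and Sftpc -0.88. With libraries left out (each of the 6, or both adequate replicate 1 and deficient replicate 3), values ran from -0.44 to 0.74 for Asns, -0.53 to 0.26 for Trib3, -0.68 to 0.45 for Ddit3, -0.65 to 0.03 for Phgdh, -0.38 to 0.42 for Mthfd2, -0.04 to 0.63 for Ahcy, -0.75 to 0.05 for Odc1, -0.11 to 0.44 for Pmel, -0.05 to 0.28 for Mitf and -0.08 to 2.71 for Sftpc. Of 705 recomputed list medians, 650 moved by less than the spread between libraries. That spread includes deficient replicate 3 and was wide for some lists, such as 1.31 for neutrophil genes, so large moves could count as small. Scaling and filter alternatives left the median of all genes between -0.00 and 0.06.

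No paired analysis was possible because the labels give no replicate numbers, and the numbers used here only name libraries. With 3 libraries a group, a gene that did not pass is not shown to be equal between the diets.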

Other observations

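Markers of other cells that a lung sample can hold gave no common direction. The erythroid and platelet list had a summed level of 205 to 285 CPM in adequate and 102 to 1304 CPM in deficient libraries, and its median log2 fold change of 0.46 over 9 genes became -1.04 without deficient replicate 3. The 7 mesothelial genes, which mark the lining of the pleura, had a median of 0.15 and a summed level of 24.9 to 62.6 CPM against 24.0 to 123 CPM; without that library the median was -0.81. The 12 heart and skeletal muscle genes had a median of -0.65, which was -0.64 without it, and summed to 15.5 to 51.7 CPM against 23.1 to 45.6 CPM. Neutrophil genes had a summed level of 26.2 to 97.7 CPM in adequate and 18.9 to 141 CPM in deficient libraries, with Ly6g, Elane and Camp at 0. Their median over 10 genes was -0.04, and it was -0.95 with 9 of 10 below 0 without deficient replicate 3 and 0.76 without adequate replicate 2.

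Other lists of growth and stress gave small medians that moved with the libraries included. The cholesterol synthesis list had 17 of 23 members below 0 and a median of -0.19, which was 0.05 without deficient replicate 3. Without deficient replicate 1 the median was -0.51. In that fit 7 members were lower at an unadjusted p under 0.05, against 1179 of all 16650 genes. The 22 p53 and apoptosis genes had a median of -0.05, the 25 genes of the unfolded protein response 0.03 and the 15 genes of fatty acid synthesis 0.09. Over the fits that left out 1 library each, these ran from -0.18 to 0.02, from -0.07 to 0.27 and from -0.09 to 0.35. Without adequate replicate 1, 21 of the 25 unfolded protein response genes were above 0 and 6 were higher at an unadjusted p under 0.05. Over all genes of that fit, 1268 of 16645 were higher at such a p. Without deficient replicate 3 as well, the median of these 25 genes was 0.37, with 20 above 0. The 22 genes of the MYC network had a median of -0.20, with 15 below 0.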
